A study of Mus musculus with 4 samples.

Results

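Collagens are the main structural proteins of the extracellular matrix, and 44 of the 54532 genes counted in this RNA sequencing series encode a collagen chain. They were taken as every gene whose symbol reads Col, a number, the letter a and a number, with no filter on expression. Poly(A) RNA came from C3H10T1/2, an established line of mouse mesenchymal stem cells with the capacity for bone, cartilage and fat formation, and each of the 4 groups was 1 library. The control library came from cells given a non-targeting siRNA for 48 h, and the siDNMT1 library from cells given the siRNA for DNMT1, a DNA methyltransferase that maintains CpG methylation through cell division. The OB library came from control siRNA cells that were then kept for 3 days in osteoblast (OB) induction medium holding 50 µM ascorbic acid, 10 mM glycerophosphate and dexamethasone, and the siDNMT1_OB library is labelled as having both the DNMT1 siRNA and the induction. A single cell line in culture and 1 library a group mean that no difference below has a replicate check.

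A collagen molecule is a triple helix of 3 chains, and each chain carries runs of glycine-X-Y triplets because only glycine is small enough for the centre of the helix. Fibrillar collagens form the banded fibres of bone, cartilage, skin and tendon, and FACIT collagens (fibril-associated collagens with interrupted triple helices) sit on the surface of those fibres. Basement membrane and other network-forming collagens build sheets, and type VI collagen builds beaded filaments around cells. Ascorbic acid, part of the induction medium, is a cofactor of the hydroxylases that modify collagen prolines and lysines. Bone matrix is mostly type I collagen, while types II, IX, X and XI mark cartilage.

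The fibrillar class stood apart in the chains themselves, while the ranges of the other classes given here overlapped. In translated GENCODE M21 coding sequences of all 44 genes, the longest unbroken run of glycine-X-Y triplets had a median of 338 triplets in the 11 fibrillar chains, with a range of 216 to 344. The low end belonged to Col24a1 at 216 and Col27a1 at 217, and the other fibrillar chains held 337 or more. The longest run was 32 to 113 triplets in the 9 FACIT chains, 59 to 60 in the 3 short network chains, 30 to 66 in the 8 basement membrane chains and 37 to 87 in the 6 beaded filament chains. Col1a1 carried 355 triplets in runs, which made up 73.3% of its 1453 residues, whereas Col12a1 had 83 triplets in 8.12% of 3065 residues.

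**Figure D1:**
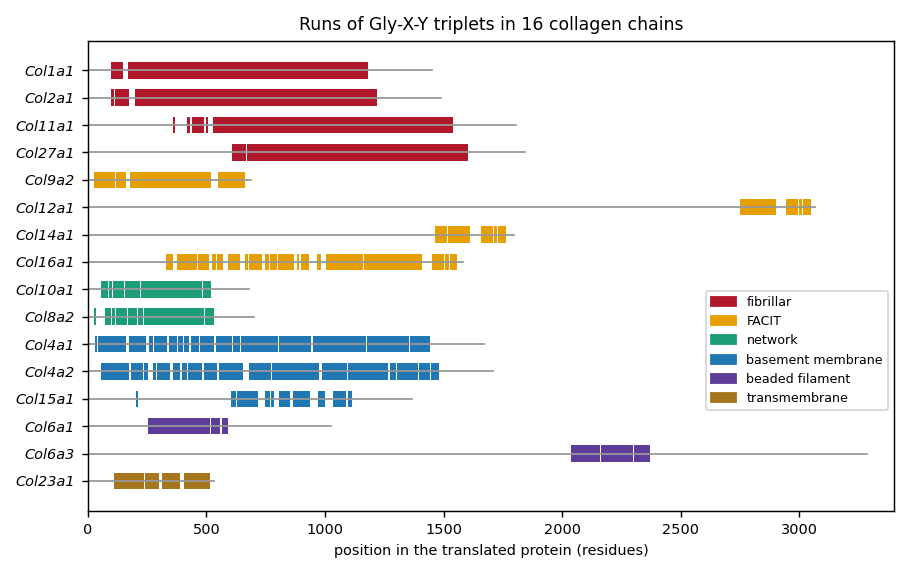
Position of runs of at least 3 glycine-X-Y triplets (coloured blocks) along 16 translated collagen chains (grey lines), in residues from the first methionine, with 1 colour per class. Col1a1 and Col11a1 show 1 long block of 338 triplets, while Col4a1 has 23 shorter runs and Col12a1 keeps 5 runs near its end.

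Of the 44 genes, 31 reached a mean of at least 1 CPM (counts per 1e6 of a library) over the 4 libraries and entered the comparisons with 13233 genes in all. The other 13 stayed below that level, and Col22a1 had no count in any library. Col9a2 and Col14a1 passed only through the library labelled siDNMT1_OB. Col23a1 lay under 1 CPM in control and siDNMT1, and Col10a1 in control and OB, so each passed only through the libraries where it was higher. Library totals ran from 22296046 to 27367792 counts, and 3 counts, used as the counting floor, stand for 0.111 to 0.133 CPM. A count of 0 has an exact 95% upper limit of 0.136 to 0.163 CPM. The collagen genes held 2.65% of all counts in the control library (95% exact binomial interval 2.64 to 2.66), 3.01% in siDNMT1 (3.00 to 3.02), 3.45% in OB (3.45 to 3.46) and 3.56% in siDNMT1_OB (3.55 to 3.56). These intervals cover counting error only.

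Dnmt1 served as the check of the labels. It had counts of 7195, 3375, 1931 and 2492 in control, siDNMT1, OB and siDNMT1_OB. Dnmt1 was therefore lower in siDNMT1 than in control (log2 fold change -1.01), whereas OB and the library labelled siDNMT1_OB, which share the induction, differed by 0.13 with the labelled knockdown on the higher side. Every direction drawn from that library, named below by its label, is subject to this. The mesenchymal markers passed the filter in 7 of 8 cases, and their summed level was 6273, 7316, 7577 and 9483 CPM in the same order. Vim alone held 5506, 6599, 6084 and 8356 CPM of these sums. The median log2 fold change of the 7 was -0.23 in siDNMT1 against control and -0.11 in siDNMT1_OB against OB, with 3 above 0 each time. It was 0.39 in OB against control and 0.40 in siDNMT1_OB against siDNMT1, with 6 and 7 above 0. By the rule given below, Pdgfra was higher in OB against control (2.47) and in siDNMT1_OB against siDNMT1 (1.56), Thy1 in the latter (1.22), and Ly6a was lower in siDNMT1 than in control (-1.03). Their part in the collagen values was not tested. Of 4 epithelial markers 0 passed: Epcam and Krt18 had no count, Krt8 had at most 3 and Cdh1 had 25, 18, 7 and 17. Among the OB markers 1 of 5 passed, Runx2, and Alpl, which encodes the alkaline phosphatase of OBs, had 0 to 2 counts in each library, OB included. Ibsp, the bone sialoprotein gene, had 1, 3, 6 and 17 counts, Sp7 had 1 to 8 and Bglap 1 to 3. In bulk RNA, fewer cells of a type and less RNA per cell cannot be told apart.

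The most abundant collagen genes were the 2 chains of type I collagen. Col1a1 (chromosome 11, 94936224 to 94953042, build GRCm38 here and below) had 261547, 281058, 205939 and 288387 counts in control, siDNMT1, OB and siDNMT1_OB. Col1a2 (chromosome 6, 4504814 to 4541544) had 240940, 245485, 250823 and 297331. By counts they ranked 1 and 2 among all genes in the control library and stayed within the first 4 in the others. Together they made up 69.3% of collagen counts in control and 68.3% in siDNMT1, against 59.3% in OB and 61.2% in siDNMT1_OB. The other collagens went from 0.815% of all counts in control and 0.954% in siDNMT1 to 1.41% in OB and 1.38% in siDNMT1_OB.

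**Figure D2:**
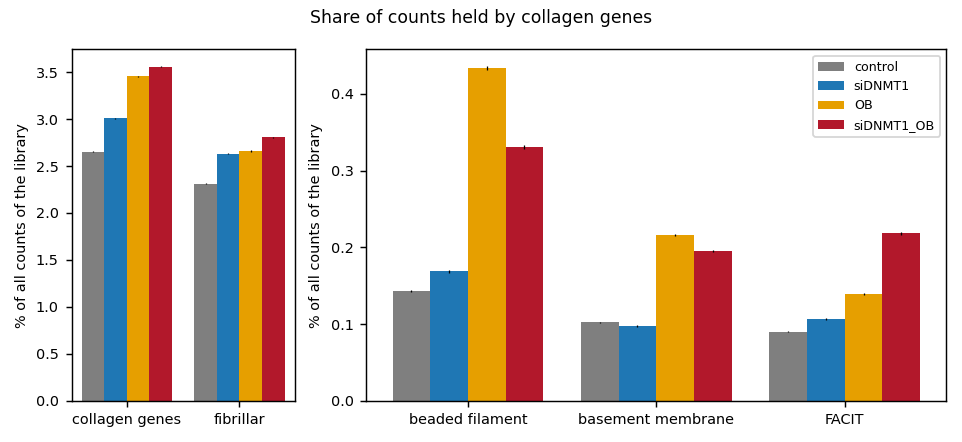
Share of all counts of each library (%) held by the 44 collagen genes and by 4 of their classes, 1 bar per library, with exact 95% binomial intervals as thin lines and both axes from 0. Fibrillar genes take 2.31% to 2.80% in each library, and the beaded filament genes go from 0.143% in control to 0.433% in OB.

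The siRNA comparisons ask which genes differ when DNMT1 is targeted, and the induction comparisons which differ after 3 days in OB medium. A gene was called higher or lower where its log2 fold change had a size of 1 or more and the read counts of both libraries differed in an exact binomial test, adjusted over the 13233 genes by Benjamini-Hochberg at 0.05. That test compares 2 libraries and not 2 conditions. In siDNMT1 against control, 4 of the 31 collagen genes (12.9%) were higher, where 1.86% of all genes were, and 0 were lower, where 1.33% were. In siDNMT1_OB against OB, 6 (19.4%) were higher against 2.35% of all genes, and 2 (6.45%) were lower against 1.35%. Induction called more genes. In OB against control, 15 (48.4%) were higher against 10.6% of all genes and 1 (3.23%) was lower against 7.1%. In siDNMT1_OB against siDNMT1, 13 (41.9%) were higher against 6.82% and 1 (3.23%) was lower against 2.71%. Col23a1 is among the higher calls of both induction comparisons and Col10a1 of both siRNA comparisons. Each passed the filter only through the libraries where it was higher. The calls for siDNMT1_OB and those in OB against control include Col9a2 and Col14a1, which the library labelled siDNMT1_OB brought past the filter. With the filter read over the other libraries, a setting chosen after seeing the data, 4 of 29 collagen genes (13.8%) were higher in siDNMT1_OB against OB, where 2.18% of all genes were, and 2 (6.9%) were lower, where 1.43% were. In siDNMT1_OB against siDNMT1 11 of 29 (37.9%) were then higher against 6.28%, and 1 (3.45%) was lower against 2.81%. In OB against control 13 of 29 (44.8%) were then higher against 10.2%, and 1 (3.45%) was lower against 7.3%. With a filter of 5 CPM, 2 of 24 (8.33%) were higher and 2 lower in siDNMT1_OB against OB, where 1.71% and 0.665% of all 10827 genes were. The median log2 fold change over the 31 genes was 0.19, 0.18, 0.96 and 0.85 in these comparisons, and that over all genes tested lay between -0.00 and 0.01.

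Fewer siRNA calls were made under both edgeR rules, whereas the fold threshold alone gave 5 and 8 collagen genes in place of 4 and 8. The share of all genes past the fold threshold alone is not given, so those counts are no result about the collagen genes. An edgeR quasi-likelihood fit with additive siRNA and induction terms, which takes its spread from the difference between both siRNA effects, called 0 of 13233 genes for the siRNA at an adjusted p of 0.05 (1148 at an unadjusted p under 0.05, 13 of them collagen genes). With an assumed biological coefficient of variation of 0.2, an edgeR exact test called 2 collagen genes in place of 4 in siDNMT1 against control, where it called 0.438% of all genes, and 1 in place of 8 in siDNMT1_OB against OB, where it called 0.416%. In siDNMT1_OB against siDNMT1 it called 9 in place of 14, and 4.57% of all genes. The same additive fit called 2786 genes for induction, 18 of them collagen genes.

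**Figure D3:**
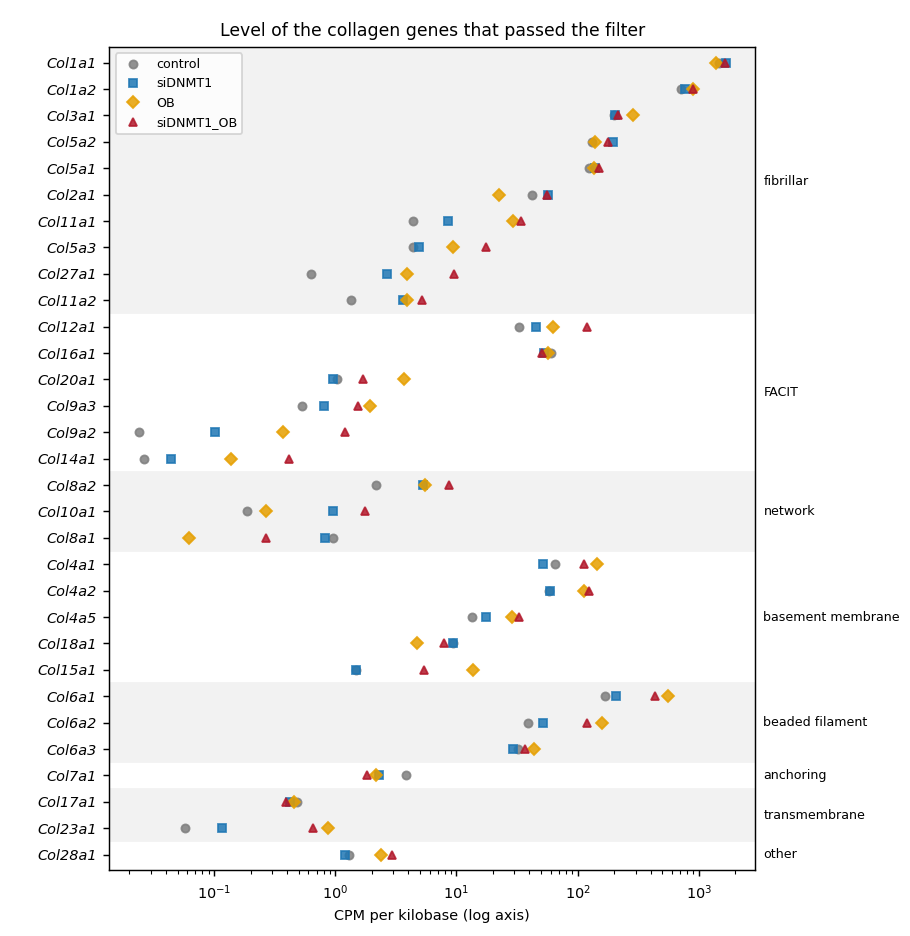
Level of the 31 collagen genes that passed the filter, in CPM per kilobase on a log axis, with 1 symbol per library and genes grouped by class. Col1a1 lies between 1388 and 1672 in all libraries, while Col27a1 runs from 0.626 in control to 9.59 in siDNMT1_OB and Col8a1 is lowest in OB at 0.0621.

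Among the fibrillar collagens, the abundant chains Col1a1, Col1a2, Col3a1, Col5a1 and Col5a2 had log2 fold changes between -0.42 and 0.56 in every comparison, while Col5a3, Col11a1 and Col27a1 were higher in both induction comparisons. Of 10 tested, 2 were higher in siDNMT1 against control (Col11a2, Col27a1) and 2 in siDNMT1_OB against OB (Col2a1, Col27a1). After induction 4 were higher in OB against control (Col5a3, Col11a1, Col11a2, Col27a1) and 3 in siDNMT1_OB against siDNMT1 (Col5a3, Col11a1, Col27a1). None was lower. The shares of the class called higher were 20%, 20%, 40% and 30%, against 1.86%, 2.35%, 10.6% and 6.82% of all genes. The class median was 0.31, 0.29, 0.42 and 0.17 in the order siDNMT1 against control, siDNMT1_OB against OB, OB against control and siDNMT1_OB against siDNMT1, an order kept below.

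For Col1a1 the 4 log2 fold changes were 0.19, 0.24, -0.08 and -0.03, and for Col1a2 they were 0.11, 0.00, 0.32 and 0.21. The near-zero value of Col1a2 turned to -0.03 with total counts and to -0.01 with upper quartile scaling. Type I collagen usually assembles from 2 Col1a1 chains and 1 Col1a2 chain. The ratio of Col1a1 to Col1a2 per kilobase was 2.06 in control (95% counting interval 2.04 to 2.07) and 2.17 in siDNMT1 (2.16 to 2.18), against 1.55 in OB (1.55 to 1.56) and 1.84 in siDNMT1_OB (1.83 to 1.85). The ratio was thus smaller in both induced libraries, and its absolute size rests on the listed gene lengths: undivided counts gave 1.09, 1.14, 0.821 and 0.970.

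Col3a1, which mixes with type I in soft tissue and early repair matrix, had 53368, 51168, 63629 and 56385 counts. Its fold changes of 0.02, -0.42, 0.52 and 0.08 were all below the size threshold. Type V collagen nucleates type I fibrils and sets their diameter. Its Col5a1 chain (28514, 29979, 25967 and 34330 counts) stayed within 0.13 to 0.16 in all comparisons, and Col5a2 (34227, 47709, 30167 and 45292) had its largest value, 0.56, in siDNMT1 against control. Col5a3, the least abundant type V chain, had 810, 853, 1450 and 3218 counts, and both induced libraries were above both uninduced ones (1.10 in OB against control and 1.85 in siDNMT1_OB against siDNMT1, both called higher).

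Types II and XI build the thin fibrils of cartilage. Col2a1 (chromosome 15, 97975602 to 98004695) had counts of 10580, 13440, 4675 and 13813 in control, siDNMT1, OB and siDNMT1_OB. OB was thus the one library with a low level, and Col2a1 was higher in siDNMT1_OB than in OB (1.32, interval 1.27 to 1.37), while OB against control gave -0.92 (-0.97 to -0.87), short of the threshold. Col11a1 (chromosome 3, 114030540 to 114220718) went the other way, with 1508, 2755, 8380 and 11595 counts. It was higher in both induction comparisons (2.73 and 2.01), and its siDNMT1 against control value, 0.95 (0.86 to 1.04), lay just under the threshold.

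Col11a2 (chromosome 17, 34039437 to 34066685) had 252, 638, 598 and 947 counts, so that control was the one library with a low level. It was higher in siDNMT1 than in control (1.41, 1.21 to 1.64) and in OB than in control (1.50, 1.29 to 1.73), and both comparisons share that control library. In siDNMT1_OB against OB it gave 0.42, and in siDNMT1_OB against siDNMT1 0.51. The ratio of Col11a1 to Col11a2 per kilobase was 3.21, 2.31, 7.51 and 6.56 for control, siDNMT1, OB and siDNMT1_OB, and that of undivided counts 5.98, 4.32, 14.0 and 12.2. The third chain of type XI is made from the Col2a1 gene, which did not share this order.

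Col27a1 (chromosome 4, 63214004 to 63334991), a fibrillar collagen found in developing cartilage, had counts of 221, 898, 1161 and 3341 in control, siDNMT1, OB and siDNMT1_OB. It was the only one of the 31 tested genes called in all 4 comparisons, and it was higher in each. The values were 2.09 (1.89 to 2.32) in siDNMT1 against control, 1.28 (1.19 to 1.38) in siDNMT1_OB against OB, 2.64 (2.45 to 2.87) in OB against control and 1.83 (1.73 to 1.94) in siDNMT1_OB against siDNMT1. The remaining fibrillar gene, Col24a1, had 2 counts in OB and none elsewhere.

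Markers of cartilage cells other than collagens are given beside these genes. Sox9, a transcription factor of the cartilage lineage that acts on Col2a1, Col9 and Col11 genes, had 2549, 4038, 4429 and 6215 counts and was higher in OB than in control (1.06). Cnmd, which encodes chondromodulin, had 1, 2, 58 and 67. Acan, the aggrecan gene that defines mature cartilage matrix, had no count in any library, and Matn1 had at most 2. The summed level of this 4-gene list was 94.0, 158, 198 and 235 CPM for control, siDNMT1, OB and siDNMT1_OB, and its part in the collagen values was not tested.

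The FACIT genes had a median of 1.82 in OB against control. There the beaded filament class had 1.73, the basement membrane class 1.09, the short network class 0.46 and the fibrillar class 0.42. The transmembrane class had only 2 tested genes, Col23a1 at 3.63 and Col17a1 at -0.06, so its median of 1.79 describes neither. None of the 6 FACIT genes tested was called in siDNMT1 against control, where 1.86% of all genes were higher and 1.33% lower. The FACIT median there was 0.52. In siDNMT1_OB against OB, Col9a2 and Col14a1 were higher and Col20a1 was lower (median 0.38), and both higher genes passed the filter only through siDNMT1_OB. Over the 4 FACIT genes that pass without that library the median was 0.18, -0.24, 1.38 and 0.88, so that its sign turned in siDNMT1_OB against OB. In OB against control Col9a2, Col9a3, Col14a1 and Col20a1 were higher, and in siDNMT1_OB against siDNMT1 Col9a2, Col12a1 and Col14a1 were higher (median 1.17 in the latter). These are 66.7% and 50% of the 6, against 10.6% and 6.82% of all genes, with Col9a2 and Col14a1 counted in both. Of the 4 that pass without that library, Col9a3 and Col20a1 were higher in OB against control, where 10.2% of all genes were. Only Col12a1 was then higher in siDNMT1_OB against siDNMT1, where 6.28% of all genes were.

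Col12a1 and Col16a1 carried most FACIT counts. Col12a1 (chromosome 9, 79598991 to 79718831), which binds type I fibrils in tendon, ligament and bone surfaces, had 13466, 17828, 21696 and 48975 counts. Its level per kilobase was 32.6, 45.7, 63.0 and 120.2 CPM, so the library labelled siDNMT1_OB stood above the other 3. The log2 fold changes were 0.49, 0.93, 0.95 and 1.39, and only the last, siDNMT1_OB against siDNMT1, was called. Col16a1, with 10991, 9075, 8652 and 9147 counts, stayed between -0.19 and -0.05.

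Type IX collagen coats type II fibrils in cartilage, and its 3 chains come from Col9a1, Col9a2 and Col9a3. Col9a3 had 56, 79, 169 and 160 counts and was higher in OB than in control (1.82, 1.41 to 2.32). Col9a2 had 2, 8, 26 and 99. Because the control library held only 2 counts, Col9a2 is given there as a ratio of levels with its counting interval, 4.23 (0.845 to 40.9) in siDNMT1 against control, which was not called, and 15.6 (3.90 to 135.6) in OB against control, which was called higher. Between libraries with more counts it was higher by 1.62 (1.05 to 2.37) in siDNMT1_OB against OB and by 3.27 (2.53 to 4.82) in siDNMT1_OB against siDNMT1. Col9a1 stayed below the filter with 2, 6, 33 and 19 counts. All 3 genes thus had their higher counts in the induced libraries, though the highest library was OB for Col9a1 and Col9a3 and siDNMT1_OB for Col9a2.

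Col14a1, which binds fibrils through decorin in skin and tendon, had 5, 8, 22 and 78 counts, with wide intervals. It was higher by 2.00 (0.96 to 4.16) in OB against control, by 1.51 (0.89 to 2.34) in siDNMT1_OB against OB and by 2.94 (2.17 to 4.48) in siDNMT1_OB against siDNMT1. Col20a1 had 145, 125, 430 and 233 counts. It was higher in OB than in control (1.82, 1.56 to 2.11) and lower in siDNMT1_OB than in OB (-1.12, -1.36 to -0.89). OB was thus the highest library, and siDNMT1_OB against siDNMT1 gave 0.83 (0.52 to 1.16), below the threshold. Part of a same-strand gene, 9230112E08Rik (253, 272, 321 and 247 counts), overlaps 79 exonic bases of Col20a1. Col19a1 had 17 counts in siDNMT1_OB and none elsewhere.

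**Figure D4:**
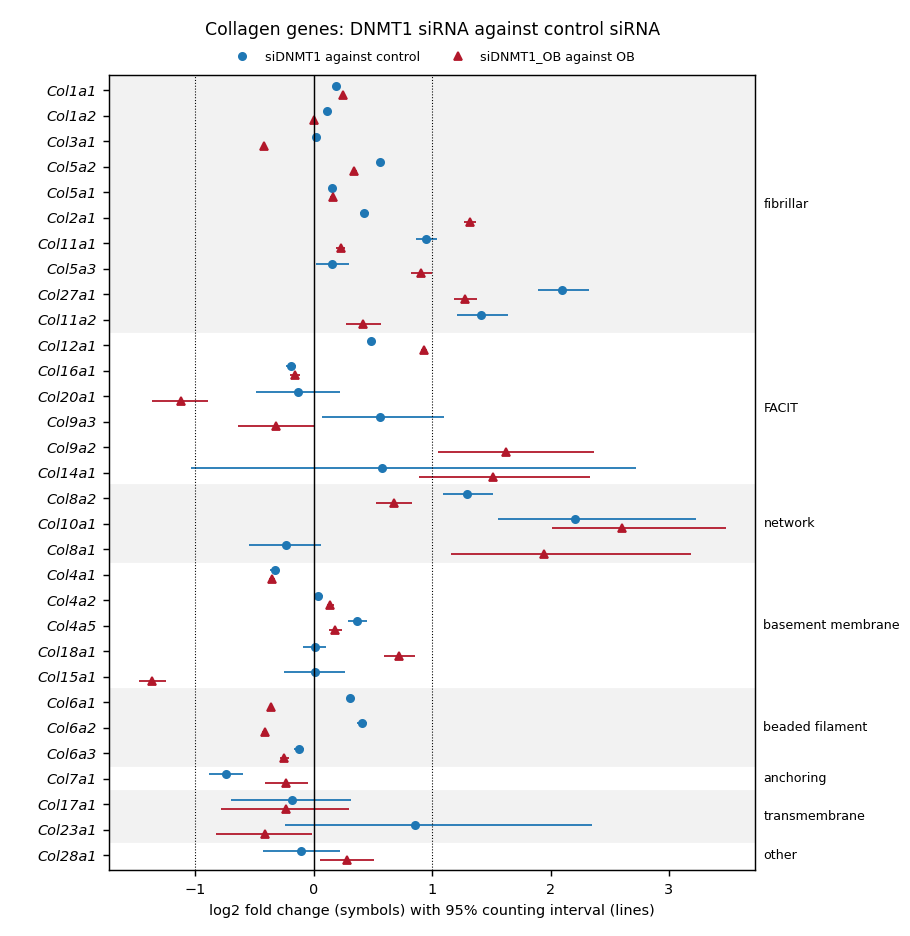
Log2 fold change of siDNMT1 against control (circles) and of siDNMT1_OB against OB (triangles) for the collagen genes that passed the filter, with exact 95% counting intervals, 0 as a solid line and the size threshold of 1 as dotted lines. Col10a1 and Col27a1 lie past 1 in both pairs, Col8a1 and Col2a1 only in the induced pair, and Col15a1 is at -1.36 in the induced pair; Col9a2 against the 2 counts of control is not drawn.

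The short-chain network collagens had few counts in all libraries, 0.00176% of all counts in control and 0.00464% in siDNMT1_OB, and all 3 genes were called in 1 or more siRNA comparisons. Type X collagen is made by hypertrophic chondrocytes at the cartilage to bone transition, and type VIII lines vessels and the cornea. Col10a1 and Col8a2 were higher in siDNMT1 against control, and Col10a1 and Col8a1 in siDNMT1_OB against OB, 2 of 3 (66.7%) each time against 1.86% and 2.35% of all genes. Col10a1, counted in both, passed the filter only through the libraries labelled with siDNMT1. The class median was 1.29, 1.94, 0.46 and 0.71.

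Col10a1 (chromosome 10, 34389981 to 34397085) had counts of 16, 77, 19 and 147 in control, siDNMT1, OB and siDNMT1_OB. Both libraries labelled with siDNMT1 were above both control siRNA libraries, and induction alone left it at 0.46 (-0.53 to 1.57). It was higher by 2.21 (1.56 to 3.23) without induction and by 2.60 (2.01 to 3.48) with it. Its level was 0.590 CPM in control and 0.840 in OB, so it passed the filter of 1 CPM only through the libraries labelled with siDNMT1. Under a filter of 5 CPM, 3 of 24 collagen genes (12.5%) were higher in siDNMT1 against control, where 0.998% of all genes were. With a mean of 2.48 CPM, Col10a1 was not tested there. In GENCODE M21 18 of its exonic bases lie opposite Nt5dc1, which had 447, 350, 368 and 364 counts and no such order.

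Col8a2 (chromosome 4, 126286793 to 126314330) had 262, 610, 553 and 1046 counts. Control was again the low library, and Col8a2 was higher in siDNMT1 than in control (1.29, 1.09 to 1.52) and in OB than in control (1.33, 1.13 to 1.56). Its partner Col8a1 (chromosome 16, 57624258 to 57754737) had 205, 164, 11 and 56 counts and was the only collagen gene called lower by induction. The log2 fold change was -3.76 (-4.98 to -3.09) in OB against control and -1.58 (-2.08 to -1.17) in siDNMT1_OB against siDNMT1. Col8a1 had a mean of 4.12 CPM and was not tested with a filter of 5 CPM. Under that filter 0 of 24 collagen genes were lower in either comparison, where 6.74% and 2.12% of all genes were. It was higher in siDNMT1_OB than in OB (1.94, 1.16 to 3.19). The ratio of Col8a1 to Col8a2 per kilobase accordingly went from 0.448 in control to 0.154 in siDNMT1, 0.0114 in OB and 0.0307 in siDNMT1_OB (undivided counts gave 0.782, 0.269, 0.0199 and 0.0535), so that Col8a2 exceeded Col8a1 in each. Tek, one of 4 endothelial markers and the only one past the filter, had 51, 152, 63 and 203 counts and was higher in both siRNA comparisons (1.62 and 1.42), while Pecam1 had at most 8 counts and Cdh5 at most 3. The summed level of the list was 2.25, 6.21, 3.18 and 7.81 CPM, and its part in the type VIII values was not tested.

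DNMT1 acts on CpG dinucleotides, so the bases before the start of the collagen genes called higher in siDNMT1 against control were read. RefSeq windows of 250 bases before the start (build GRCm38.p6) were found for 35 of the 44 genes. The 3 below are shown because those genes, Col10a1, Col8a2 and Col11a2, were higher while their windows differed in CpG content, 5, 24 and 14 CpG. Capitals mark CpG and the motif TATAAA, searched on both strands. They lie at chr10:34389731-34389980, chr4:126286544-126286793 and chr17:34038888-34039137, all on the plus strand, and the RefSeq start of Col11a2 is 299 bases from that in the count table. Col27a1, the other gene called higher, had 15 CpG in its window, which is not shown, and its RefSeq start lies 1408 bases from the listed one.
Col10a1: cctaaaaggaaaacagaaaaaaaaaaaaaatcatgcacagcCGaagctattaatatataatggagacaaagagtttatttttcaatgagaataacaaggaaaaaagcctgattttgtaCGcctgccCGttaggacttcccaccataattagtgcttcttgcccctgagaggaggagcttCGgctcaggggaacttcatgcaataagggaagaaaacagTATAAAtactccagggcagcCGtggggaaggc
Col8a2: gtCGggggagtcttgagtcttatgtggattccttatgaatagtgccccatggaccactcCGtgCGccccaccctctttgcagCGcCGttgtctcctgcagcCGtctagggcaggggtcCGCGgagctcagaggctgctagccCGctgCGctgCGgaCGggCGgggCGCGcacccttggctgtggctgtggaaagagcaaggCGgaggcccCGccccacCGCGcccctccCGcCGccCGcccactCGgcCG
Col11a2: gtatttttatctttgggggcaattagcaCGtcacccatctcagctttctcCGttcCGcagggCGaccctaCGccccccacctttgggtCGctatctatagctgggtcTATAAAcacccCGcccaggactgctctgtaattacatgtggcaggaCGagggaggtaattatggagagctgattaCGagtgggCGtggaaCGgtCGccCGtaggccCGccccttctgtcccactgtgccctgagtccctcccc

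The collagen windows held a median of 10 CpG, against 6 in all 32851 windows. TATAAA was found in 5 of the 35 collagen windows and in 12.4% of all windows, and the RUNX-type motif TGTGGT in 2 of them and in 14.0% of all. GGGCGG was found in 21 of them and in 32.7% of all windows, and each GGGCGG holds 1 CpG. Over the 25 tested genes with a window, Spearman's rho of CpG number and log2 fold change was 0.13 for siDNMT1 against control and 0.27 for siDNMT1_OB against OB (Pearson's r 0.06 and 0.08). The points share their libraries and base composition, and DNA methylation itself was not analysed here.

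Of the 5 basement membrane genes tested, 3 were higher in OB against control (Col4a1, Col4a5, Col15a1) and 3 in siDNMT1_OB against siDNMT1 (Col4a1, Col4a2, Col15a1), 60% each time against 10.6% and 6.82% of all genes. None was called in siDNMT1 against control, where 1.86% of all genes were higher and 1.33% lower. In siDNMT1_OB against OB only Col15a1 was called, as lower (20% against 1.35%). The class medians were 0.01, 0.14, 1.09 and 1.06, and the class held 0.102% of all counts in control and 0.0969% in siDNMT1, against 0.216% in OB and 0.195% in siDNMT1_OB.

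Type IV collagen is the sheet-forming core of basement membranes, and its common form joins 2 Col4a1 chains with 1 Col4a2 chain. Col4a1 (chromosome 8, 11198423 to 11312826) had 13079, 9842, 24316 and 22516 counts, and Col4a2 (chromosome 8, 11312805 to 11449287) had 10333, 10019, 16721 and 21790. Both were highest in the induced libraries. Col4a1 was higher by 1.16 (1.13 to 1.19) and by 1.13 (1.10 to 1.17) after induction, and Col4a2 gave 0.96 (0.92 to 0.99) and 1.06 (1.02 to 1.09), the second one called higher. With upper quartile scaling the first reached 1.01. The siRNA comparisons gave -0.33 and -0.35 for Col4a1 and 0.04 and 0.14 for Col4a2. The ratio of Col4a1 to Col4a2 per kilobase was 1.12, 0.871, 1.29 and 0.916 for control, siDNMT1, OB and siDNMT1_OB. Undivided counts gave 1.27, 0.982, 1.45 and 1.03, so which chain was in excess in siDNMT1_OB rests on the listed gene lengths.

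Col4a1 and Col4a2 point away from each other from starts 21 bases apart, so their first exons overlap by 22 bases. These bases, read on the plus strand, are shown because both genes start in them and both had their highest counts in the induced libraries. They lie at chr8:11312805-11312826 (GRCm38.p6), and capitals mark CpG.
Col4a1 and Col4a2: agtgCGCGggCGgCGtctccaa

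The 250 bases before each start held 31 CpG for Col4a1 and 26 for Col4a2, and both held CCAAT, which 12 of the 35 collagen windows and 33.8% of all windows held. The other type IV pairs are arranged in the same way. Col4a3 and Col4a4 start 72 bases apart and had at most 7 and 13 counts in a library. Col4a5 and Col4a6 start 1309 bases apart on chromosome X and differed in level. Col4a5 had 2455, 2992, 4360 and 5857 counts and was higher in OB than in control (1.09, 1.02 to 1.16), with 0.91 in siDNMT1_OB against siDNMT1, whereas Col4a6 had 3, 7, 5 and 21 counts.

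The multiplexins Col15a1 and Col18a1, whose C-terminal fragments include endostatin, differed from each other. Col15a1 (chromosome 4, 47208161 to 47313167) had counts of 255, 242, 1977 and 908 in control, siDNMT1, OB and siDNMT1_OB. It was higher by 3.21 (3.03 to 3.41) in OB against control and by 1.84 (1.64 to 2.06) in siDNMT1_OB against siDNMT1, and lower in siDNMT1_OB than in OB (-1.36, -1.48 to -1.25). Without induction the siRNA comparison gave 0.01 (-0.25 to 0.27), a sign that turned with DESeq2 size factors. Col18a1 had 1788, 1696, 754 and 1472 counts, and OB was its low library (-0.98 against control, just short of the threshold, and 0.72 in siDNMT1_OB against OB).

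**Figure D5:**
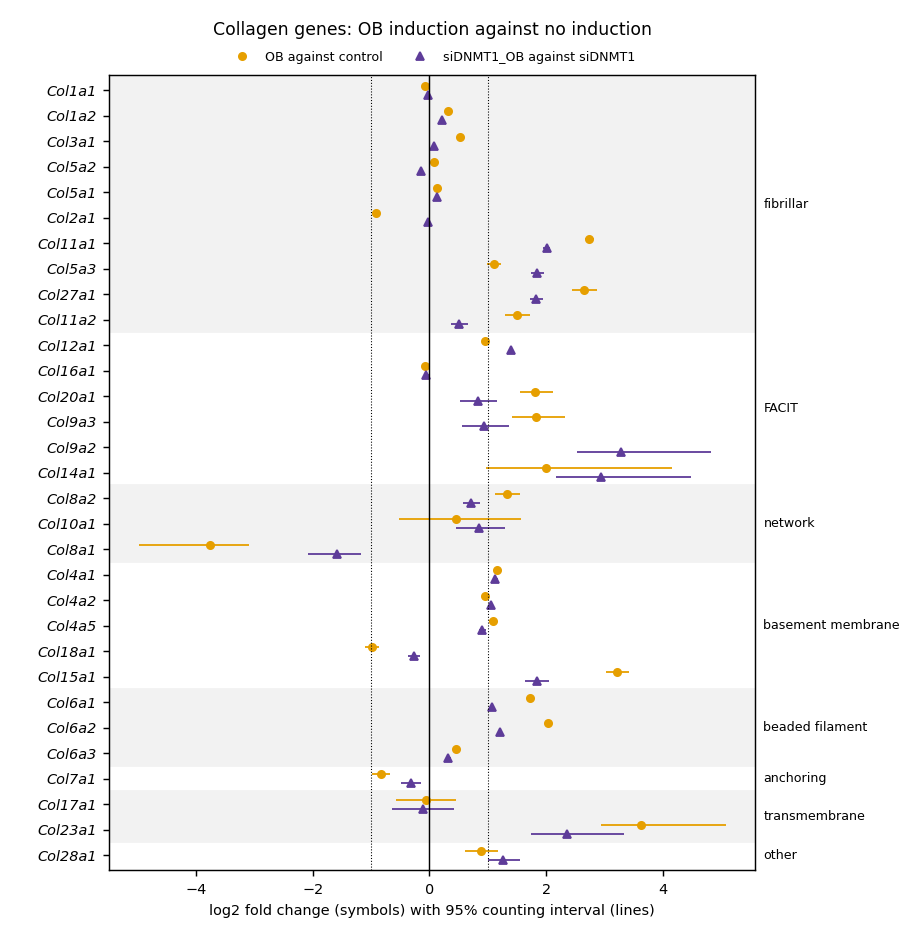
Log2 fold change of OB against control (circles) and of siDNMT1_OB against siDNMT1 (triangles) for the collagen genes that passed the filter, with exact 95% counting intervals, 0 as a solid line and the size threshold of 1 as dotted lines. Col15a1, Col11a1, Col6a1 and Col6a2 lie past 1 in both pairs and Col8a1 lies below -1 in both; Col9a2 against the 2 counts of control is not drawn.

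Of the 3 beaded filament genes tested, 2 (66.7%) were higher in each induction comparison, against 10.6% and 6.82% of all genes, and 0 were called in either siRNA comparison, where 1.86% and 2.35% of all genes were higher and 1.33% and 1.35% lower. Type VI collagen forms beaded filaments that link cells to the matrix around them, from 1 chain each of Col6a1, Col6a2 and another such as Col6a3. Col6a1 (chromosome 10, 76708792 to 76726168) had 19820, 23112, 54843 and 50632 counts, and Col6a2 (chromosome 10, 76595762 to 76623630) had 8825, 11045, 29957 and 26576. Both were higher in OB than in control (1.73 and 2.03) and in siDNMT1_OB than in siDNMT1 (1.07 and 1.20). Col6a3, on chromosome 1, had 10376, 8997, 11795 and 11747 counts, and the same comparisons gave 0.45 and 0.32. The 3 chains therefore differed in their response, and the ratio of Col6a3 to Col6a1 per kilobase was 0.192, 0.143, 0.0787 and 0.0849 for control, siDNMT1, OB and siDNMT1_OB (undivided counts gave 0.524, 0.389, 0.215 and 0.232). The ratio of Col6a1 to Col6a2 per kilobase ran from 3.48 in OB to 4.27 in control, and that of undivided counts from 1.83 to 2.25.

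Col6a1 stood at rank 165 among all genes by counts in the control library and at rank 28 in OB. The 3 further chains were near the counting floor, with 3 to 9 counts for Col6a4, 2 to 13 for Col6a6 and at most 2 for Col6a5.

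The remaining classes were small. Col7a1, the anchoring fibril collagen of skin, had 1064, 601, 501 and 504 counts. Control was its high library, and the values of -0.74, -0.23, -0.82 and -0.32 did not reach the threshold. Col23a1, a transmembrane collagen, had 9, 17, 113 and 100 counts and was higher by 3.63 (2.94 to 5.08) and 2.36 (1.74 to 3.33) after induction. It lay at 0.332 and 0.664 CPM in control and siDNMT1, so it passed the filter of 1 CPM only through the induced libraries. Both induced libraries were far above both uninduced ones. Col17a1, the transmembrane collagen of epithelial hemidesmosomes, had 60 to 75 counts in every library, and Col28a1 had 172, 151, 266 and 382 and was higher in siDNMT1_OB than in siDNMT1 (1.27, 1.00 to 1.56). Col13a1, Col25a1 and Col26a1 had at most 1, 3 and 1 counts.

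The siRNA effect in the induced pair was set against that in the uninduced pair for each gene. A difference of at least 1 on the log2 scale was found above 0 in 1 of the 31 genes, Col8a1 (2.18, interval 1.37 to 3.32), where 3.27% of all genes had one. It was found below 0 in 2, Col15a1 (-1.37, -1.65 to -1.09) and Col23a1 (-1.27, -2.65 to -0.19), where 2.95% had one. The median difference over the 31 genes was -0.05. With 1 library a group these differences have no test across conditions.

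The genes that fold, modify, export and crosslink collagen were read beside the chains. Of 33 such genes 29 passed the filter, and 0 were called in either siRNA comparison. Of all genes 1.86% and 2.35% were higher there and 1.33% and 1.35% lower. In OB against control 3 (10.3%) were higher and 2 (6.9%) lower, near the 10.6% and 7.1% of all genes, and in siDNMT1_OB against siDNMT1 2 (6.9%) were higher and 1 (3.45%) lower, near 6.82% and 2.71%. The 0 siRNA calls and these shares near the background are no result about the list, and its called members are given singly. Lox, the copper oxidase that crosslinks collagen and elastin, had 49882, 50192, 120256 and 120561 counts (1.53 in OB against control and 1.20 in siDNMT1_OB against siDNMT1, both higher). Pcolce2, an enhancer of procollagen C-proteinase, was higher by 2.05 and Adamts2, the procollagen N-proteinase, by 1.04 in OB against control. P4ha1, a catalytic subunit of prolyl 4-hydroxylase, had 7619, 4560, 1802 and 2453 counts and was lower in OB than in control (-1.82). Creb3l1, a transcription factor of type I collagen secretion in OBs, was lower in both induction comparisons (-1.20 and -1.23). In siDNMT1_OB against siDNMT1 the second gene called higher was Tll1 (1.42), a procollagen proteinase related to Bmp1. Serpinh1, the collagen chaperone HSP47, had 35310, 35662, 18651 and 26948 counts, with -0.66 and -0.47.

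Among 11 collagen receptor genes 8 passed the filter. In siDNMT1 against control 1 (12.5%) was higher, where 1.86% of all genes were. In siDNMT1_OB against OB 0 were called, where 2.35% of all genes were higher and 1.35% lower. With 8 genes tested that 0 is no result about the list. In OB against control 2 (25%) were higher against 10.6% and 1 (12.5%) lower against 7.1%, and in siDNMT1_OB against siDNMT1 2 (25%) were higher against 6.82%. Itga1, the integrin chain that prefers type IV collagen, had 163, 321, 1094 and 1360 counts. It was higher in siDNMT1 than in control (1.05), in OB than in control (2.99) and in siDNMT1_OB than in siDNMT1 (2.01). Itga10, an integrin chain of cartilage, had 42, 34, 129 and 291 counts and was higher after induction (1.83 and 2.96). Adgrg1, a receptor for type III collagen, was lower in OB than in control (-1.06). The fibrillar collagen receptors Ddr2 (15849, 16411, 16302 and 16306 counts) and Itga11 (562, 750, 470 and 606) were not called in any of the 4 comparisons.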

How the data were processed

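Per the study's methods, poly(A) libraries were made with a TruSeq kit and sequenced from both ends. The authors deposited 1 table of raw read counts per gene for the 4 libraries, in whole numbers and without normalization. The submitters' processing notes name Trimmomatic, HISAT2, featureCounts and build mm10. Strand use and the treatment of reads with several positions are not given in the sources used here, so overlapping genes can share counts. All 44 collagen genes had the same position in GENCODE M21 (GRCm38).

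Here counts were scaled to CPM with TMM factors from edgeR 4.0.16 (R 4.3.3), computed over the 13233 of 54532 genes with a mean of at least 1 CPM. The factors ran from 0.991 to 1.01. Log2 fold changes used a prior count of 2. Exact binomial read tests were adjusted by Benjamini-Hochberg over those genes, and intervals are exact (Clopper-Pearson), at 95%. Only the intervals of a difference between both siRNA effects came from a normal approximation of counting error. All intervals used counts without the prior, so at low counts a log2 fold change can lie off the centre of its interval. A tested gene against a library of 1 to 3 counts is given as the ratio of levels with its interval. Levels per kilobase used the gene lengths listed in the table. Every collagen gene is described, in classes fixed by its type, and the calling was tested on simulated data. That simulation held counting error alone, so it cannot show whether calls from 1 library a group would hold across replicates. The genes and lists were chosen with earlier results of these data known. Alternatives were other scalings, a prior count of 0.5, no filter or 5 CPM, the fold threshold alone, an edgeR additive fit, an edgeR exact test, and DESeq2 1.42.0 size factors.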

Additional observations from a re-analysis of the deposited data

Results flagged for a closer look

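For 4 collagen genes the siDNMT1 effect had its counting interval above 0 without induction and below 0 with it. How many of all tested genes meet this rule was not counted, so the 4 are no result about the collagen genes as a group. The effect in the induced pair minus that in the uninduced pair was -0.88 on the log2 scale for Col9a3, -0.66 for Col6a1, -0.82 for Col6a2 and -0.44 for Col3a1. The place of Col3a1 depends on the scaling: its interval without induction began at 0.0040 with TMM factors and at -0.0030 with DESeq2 size factors, while the other 3 genes kept theirs under each scaling. No siDNMT1 effect of these genes reached the size threshold of 1 in either pair. With 1 library a group the difference between the pairs was not tested, and it rests on the library labelled siDNMT1_OB, in which Dnmt1 was not lower than in OB.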

How the results depend on the processing

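No paired analysis was possible because each group holds 1 library and the labels give no replicate numbers; the additive fit below uses the other treatment as a term. Counts of collagen genes called stayed within 1.5 times under total count, upper quartile and DESeq2 scaling, a prior count of 0.5, no filter and the fold threshold alone. The cause of the following shifts was not tested unless the setting itself gives it. Without a filter the median of OB against control was 0.77 in place of 0.96, since genes near 0 counts enter. With a filter of 5 CPM 4 genes were called in siDNMT1_OB against OB in place of 8, since fewer genes are tested, and the 4 lost were all higher calls (2 in place of 6). The edgeR additive fit, whose single siRNA term covers both pairs, called 0 collagen genes for that term, in place of 4 in siDNMT1 against control and 8 in siDNMT1_OB against OB. The edgeR exact test with an assumed coefficient of variation of 0.2 called 2, 1 and, in siDNMT1_OB against siDNMT1, 9 in place of 14. Over counts of tested non-mitochondrial genes the collagen share was 2.73%, 3.09%, 3.56% and 3.66% in control, siDNMT1, OB and siDNMT1_OB. Without the library labelled siDNMT1_OB, an alternative chosen after seeing the data, 4 genes were called in siDNMT1 against control and 14 in OB against control, since Col9a2 and Col14a1 then miss the filter. With the filter read over the other libraries, likewise added, the FACIT median in siDNMT1_OB against OB was -0.24 in place of 0.38. Depth limits the genes with under 100 counts in a library, among them Col9a2, Col10a1, Col14a1 and Col23a1.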
